A study of Mus musculus with 2 samples.

Results

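Solute carriers are membrane proteins that move amino acids, sugars, metals, nucleotides, organic ions and fatty acids across cell and organelle membranes. Their gene symbols group them into numbered families by sequence relation, so 1 family can hold carriers of different substrates. In the liver, hepatocytes use them to take up nutrients from portal blood, to exchange intermediates between cytosol and mitochondria, and to feed glucuronidation and sulfation in the secretory pathway. The members described here are the probe sets of the array that the platform annotation gave to 1 gene whose symbol begins with Slc and a digit, or with Slco. Slc10a1, Slc27a5, Slco1a1, Slc2a2, Slc37a4, Slc40a1 and Slc25a15 were left out by that rule. It took 181 of the 12488 probe sets and 149 of the 8251 named genes, in 40 family numbers. The symbols of Slc9a3r1 and Slc9a3r2 belong to scaffold proteins and that of Slc4a1ap to an adaptor protein, not to carriers, and the rule takes them by name.

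The data are 2 single-colour oligonucleotide arrays of mouse liver total RNA, 1 group without treatment or control. Both samples were described as the same catalogue item of a commercial supplier, and no strain, sex, age or number of animals was found in the labels. The spread between the arrays may therefore be purely technical, and only 2 arrays limit the precision of every value. The titles named liver and the source field spleen. All 8 hepatocyte markers were above background on both arrays, for example Alb, albumin, with 64627 and 65800, while 0 of 4 T cell and 0 of 4 B cell markers and 0 of 2 spleen stroma markers were. Cd79a, a B cell receptor part, gave 450.3 and 333.4, and Cd3e, a T cell receptor chain, 56.0 and 51.5. Of the red cell precursor markers, described further below, 3 of 5 were above background on both arrays. Values are given for replicate 1 and then replicate 2 throughout.

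Where a gene had several probe sets, the brightest by mean log2 signal stood for it. It was called above background when its signal exceeded, on both arrays, the 95th percentile of a set of 121 genes typical of muscle, brain, testis and eye, which was 480.3 on replicate 1 and 516.5 on replicate 2. A gene below the threshold is not thereby absent. Signal also depends on probe sequence, so an order of signals is a place on the array and not an order of transcript abundance. In bulk RNA, fewer cells of a type and less RNA per cell cannot be told apart.

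Of the 149 genes, 43 (28.9%) were above background on both arrays, against 28.6% of all named genes, so the carriers as a whole were called about as often as any gene. The medians of their signals were 212.0 and 202.6, where all named genes had 228.8 and 219.2. Their median percentile among named genes was 49.1 for the mean of both arrays. A further 4 genes passed the threshold on 1 array and 102 on neither, and the signals of these 106 lay between 4.3 and 554.0. By role, the genes not above background on both arrays reached from 34.6 to 541.1 among metal carriers, from 19.2 to 470.6 among nucleoside and nucleotide sugar carriers, from 16.2 to 554.0 among mitochondrial carriers and from 4.3 to 423.2 among organic ion carriers. Of the 40 family numbers, 23 held at least 1 gene above background on both arrays and 17 held none. These counts are without the genes the rule left out, of which 5 were measured, so that Slc10 stands among the 17 without Slc10a1. The members spread over the whole range of the array, with 16 among the brightest 10% of named genes and 17 among the dimmest 10%.

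**Figure D1:**
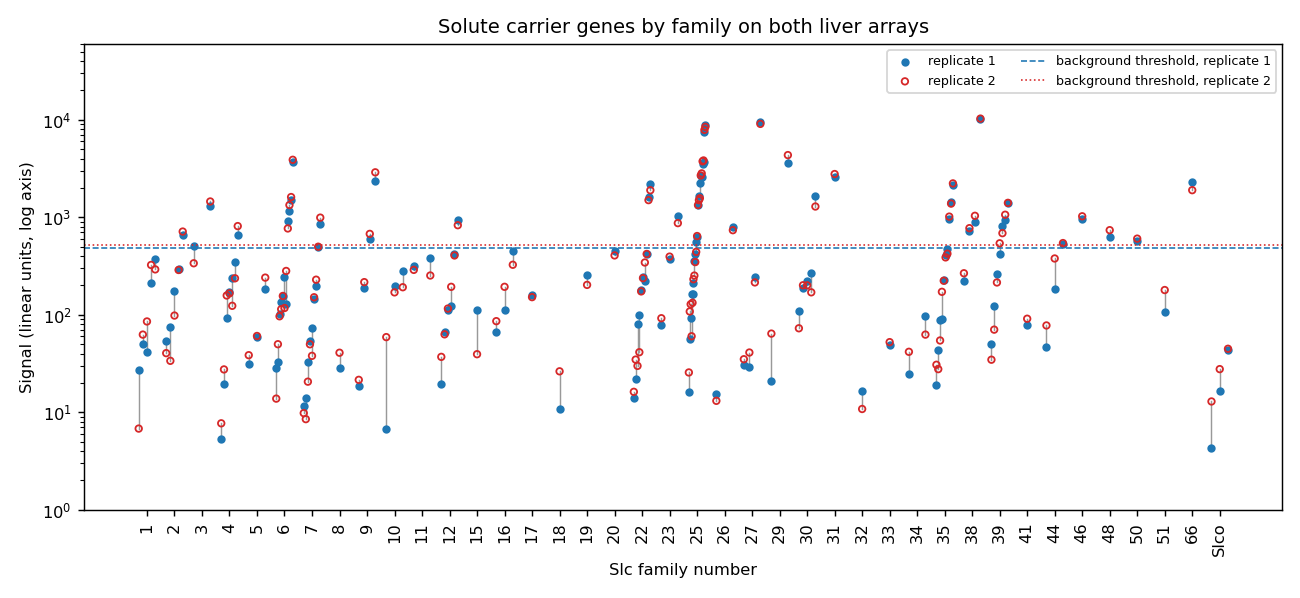
Signal of the 149 solute carrier genes by family number on both arrays (log axis, linear signal units; filled points replicate 1, open points replicate 2, grey lines joining the arrays of 1 gene, dashed and dotted lines the background thresholds of 480.3 and 516.5). The Slc25 family has 10 of its 19 genes above both lines, whereas the 3 measured Slco genes and the 5 Slc1 genes all lie below them.

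The signals of Slc38a4, Slc27a2, Slc25a47 and Slc25a39 stood apart from those of the other members, with none between 4349 and 7492. Slc38a4, a sodium-coupled carrier of small neutral amino acids that is prominent in liver, gave 10110 and 10294. Slc27a2, a fatty acid transport protein with very long-chain acyl-CoA synthetase activity, gave 9569 and 9086. The next pair are carriers of the inner mitochondrial membrane. Slc25a47, known as a carrier of liver mitochondria, gave 8848 and 8467, and Slc25a39, needed for glutathione import into mitochondria, gave 7492 and 7888. Each of these 4 genes was read by a single plain probe set, and on both arrays each lay above all other members.

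The promoter windows of these 4 genes, chosen for their signal, are shown because their start regions differ in CG content while their signals lie side by side. Each runs from 250 bases before to 50 bases after the first start listed by RefSeq (GRCm38.p6), 5′ to 3′ on the gene's strand, and capitals mark every CG. They lie at chr15:97055907-97056206 (minus strand, Slc38a4), chr2:126552774-126553073 (plus, Slc27a2), chr12:108850879-108851178 (plus, Slc25a47) and chr11:102407468-102407767 (minus, Slc25a39).
Slc38a4: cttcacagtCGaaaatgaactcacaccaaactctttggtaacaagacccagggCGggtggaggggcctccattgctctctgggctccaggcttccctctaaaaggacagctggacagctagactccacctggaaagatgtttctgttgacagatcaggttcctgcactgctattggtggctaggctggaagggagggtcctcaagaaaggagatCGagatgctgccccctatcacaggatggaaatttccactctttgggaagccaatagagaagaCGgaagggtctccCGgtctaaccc
Slc27a2: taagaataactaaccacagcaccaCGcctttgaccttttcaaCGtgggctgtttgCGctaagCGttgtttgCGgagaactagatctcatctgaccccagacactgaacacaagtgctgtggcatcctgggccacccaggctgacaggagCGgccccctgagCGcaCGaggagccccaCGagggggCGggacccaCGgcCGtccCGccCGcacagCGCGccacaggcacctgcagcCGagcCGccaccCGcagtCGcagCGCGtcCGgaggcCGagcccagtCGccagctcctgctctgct
Slc25a47: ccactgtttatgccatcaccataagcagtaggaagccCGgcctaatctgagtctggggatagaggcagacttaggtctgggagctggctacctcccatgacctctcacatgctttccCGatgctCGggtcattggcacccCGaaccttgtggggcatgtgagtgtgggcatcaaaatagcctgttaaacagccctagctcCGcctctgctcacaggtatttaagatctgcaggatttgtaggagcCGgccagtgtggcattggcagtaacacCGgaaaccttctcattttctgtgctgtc
Slc25a39: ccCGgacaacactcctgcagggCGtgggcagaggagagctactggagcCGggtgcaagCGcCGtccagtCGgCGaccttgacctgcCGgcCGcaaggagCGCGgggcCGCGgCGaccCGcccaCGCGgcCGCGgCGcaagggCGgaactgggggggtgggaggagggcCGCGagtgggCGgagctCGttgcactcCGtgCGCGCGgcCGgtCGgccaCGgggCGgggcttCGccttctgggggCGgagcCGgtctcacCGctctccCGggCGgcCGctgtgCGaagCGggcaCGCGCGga
The window of Slc38a4 held 5 CG and that of Slc25a47 held 7, whereas those of Slc27a2 and Slc25a39 held 25 and 45. Slc38a4 has 3 listed starts, and the others of it were not used. A window was found for 121 of the 149 members. The median number of CG was 16 in the 37 members above background on both arrays and 16.5 in the other 84, so these medians lay next to each other. Over the 6576 array genes with a window the median was 19, and over all 27025 genes of the table it was 7. The letters GGGCGG, searched on both strands, occurred in 27 of the 37 windows (73%) and in 54 of the 84 (64.3%), against 59.3% of the array genes. TATAAA, searched likewise, occurred in 1 of the 37 and 7 of the 84, against 10.4% of the array genes. Such matches are letters in a window and not binding sites.

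Among amino acid carriers (Slc1, Slc3, Slc7 and Slc38), 5 of 20 genes were above background on both arrays. The Slc38 family of sodium-coupled neutral amino acid carriers gave 3 of the 5: besides Slc38a4 they were Slc38a2, the widely made carrier of alanine and other small neutral amino acids, with 902.3 and 1036, and Slc38a10 with 728.0 and 773.8. Slc38a5, a carrier of glutamine and histidine, was the lowest of that family with 222.3 and 266.7. Slc3a2, the heavy chain that brings several Slc7 light chains to the cell surface, gave 1314 and 1453. Of its light chains, Slc7a5, a carrier of large neutral amino acids, gave 493.6 and 499.3 and so passed on replicate 1 alone. The other measured light chains of Slc3a2 were below the threshold on both arrays: Slc7a7 gave 198.4 and 229.1, Slc7a8 53.9 and 49.8, Slc7a11, the cystine carrier, 72.4 and 37.9, and the brighter set of Slc7a6 14.1 and 8.5. Slc7a2, a cationic amino acid carrier of liver, gave 849.0 and 992.3 and was the 1 member of 9 Slc7 genes above background on both arrays. The cationic carrier Slc7a1 was the lowest of that family with 11.7 and 9.8. The other heavy chain, Slc3a1, gave 511.8 and 337.7 and passed on replicate 1 alone. None of the 5 Slc1 genes, which carry glutamate or neutral amino acids, was above background, and they ranged down to Slc1a1 with 27.4 and 6.8. Slc1a2, a glutamate carrier prominent in astrocytes, gave 374.9 and 292.2.

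In the families that hold the carriers of neurotransmitters (Slc6, Slc17, Slc18 and Slc32), 4 of 14 genes were above background on both arrays, all of them in Slc6. Slc6a13, a carrier of GABA and taurine found in liver as well as brain, gave 3707 and 3891. Slc6a6, the taurine carrier, gave 1523 and 1614, and Slc6a12, the betaine and GABA carrier, 922.1 and 768.4. The fourth was the glycine carrier Slc6a9 with 1150 and 1336. These 4 genes carry amino acids or their relatives, but so do Slc6 genes below the threshold on both arrays. Of those, Slc6a15 gave 33 and 49.9 and Slc6a18 244.1 and 117.3. Slc6a20b of the same family was also below the threshold, with 136.7 and 114. The monoamine carriers lay below the threshold: Slc6a3 for dopamine gave 101.8 and 96.5, the brightest set of Slc6a4 for serotonin 156.1 and 156.0, and that of Slc6a2 for noradrenaline 129.2 and 281.5. Also below were Slc32a1, the vesicular GABA carrier, with 16.4 and 10.8, and Slc18a3, the vesicular acetylcholine carrier, with 10.7 and 26.3. The lowest of the Slc6 family by mean log2 signal was Slc6a8, the creatine carrier, with 28.7 and 13.8 in the brighter of its sets.

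The mitochondrial carrier family Slc25 exchanges metabolites across the inner mitochondrial membrane. It had 10 of 19 genes above background on both arrays (52.6%), a median signal of 630.9 and 642.4 and a median percentile of 75.3, against 49.1 for all members. Carriers of citric acid cycle intermediates were Slc25a1 for citrate (3545 and 3755), Slc25a10 for dicarboxylates (2567 and 2823) and Slc25a11 for oxoglutarate and malate (1350 and 1337). Slc25a20, which brings acylcarnitines in for beta-oxidation, gave 2675 and 2689. Slc25a25, an exchanger of ATP-Mg and phosphate, gave 3683 and 3830. Slc25a17, which sits in peroxisomes and not in mitochondria, gave 1654 and 1499, and Slc25a51, the mitochondrial NAD carrier, 630.9 and 642.4. With Slc25a39 and Slc25a47 these are 9 of the 10.

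The tenth was Slc25a5, an ADP/ATP carrier, and its sets disagreed: the set of suffix f gave 2233 and 1568, the plain set 154.3 and 194.6 and the set of suffix r 255.6 and 269.3. Its call thus rests on the suffixed set, and near-identical copies of this gene may share such signal. The muscle and heart ADP/ATP carrier Slc25a4 gave 357.8 and 252.5. Slc25a3, the phosphate carrier, is made in nearly all tissues but was not above background in its single probe set, with 162.1 and 132.9. Slc25a28, an iron carrier of mitochondria, gave 554.0 and 441.7 and passed on replicate 1 alone. The lowest Slc25 gene was Slc25a14, a relative of the uncoupling proteins, with 16.2 and 25.6.

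**Figure D2:**
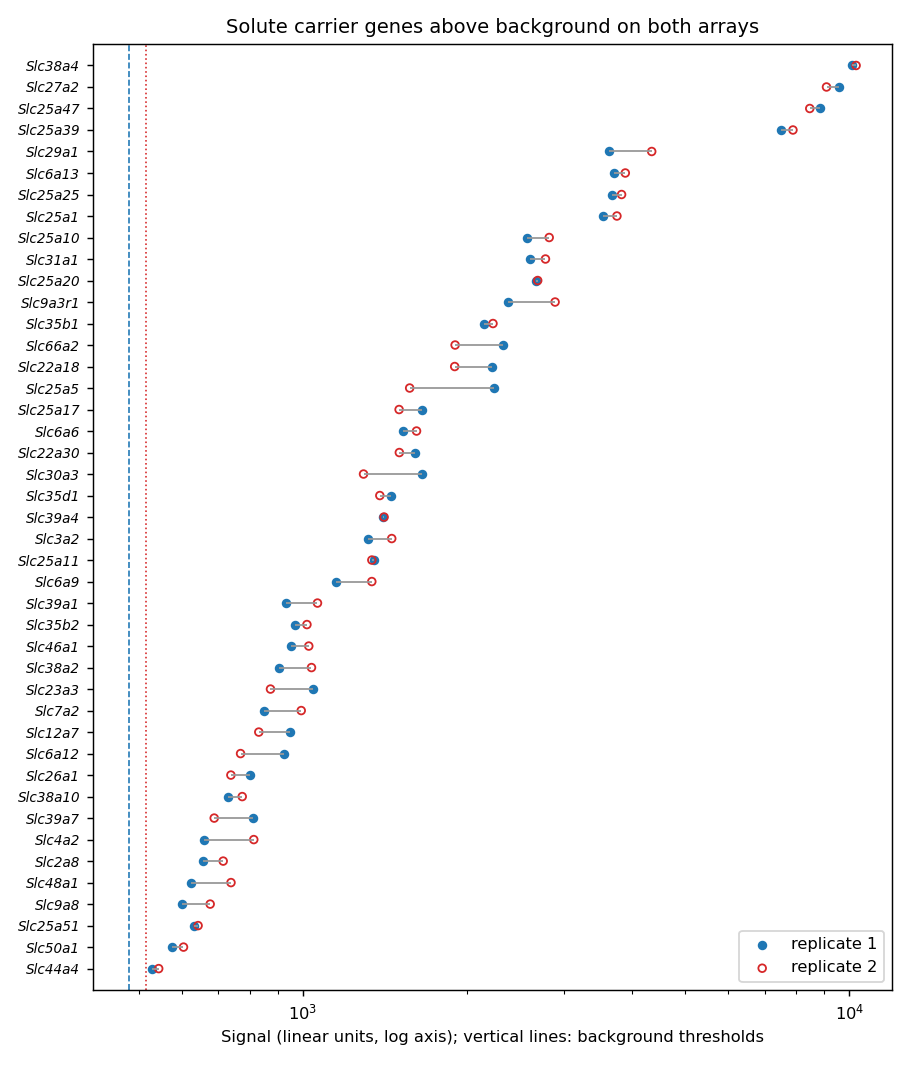
Signal of the 43 solute carrier genes above background on both arrays, ordered by mean signal (log axis, linear signal units; filled points replicate 1, open points replicate 2, vertical lines the thresholds). The arrays lie close together for most genes, and the widest gap is that of Slc25a5 (2233 and 1568).

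Metal carriers (Slc11, Slc30, Slc31, Slc39 and Slc41) were above background on both arrays for 5 of 16 genes. Slc31a1, the high-affinity copper importer, gave 2605 and 2779 in 1 set and 1591 and 1293 in the other, so both of its sets were above. Of 7 Slc39 genes, which move zinc into the cytosol, 3 were above. Slc39a4, a zinc importer best known from the intestine, gave 1401 and 1407 in its set of suffix r and 1154 and 1155 in its plain set. Slc39a1 gave 932.4 and 1063, with 169.2 and 94.5 in its second set, and Slc39a7, which releases zinc from the secretory pathway, 809.4 and 687.6. Slc39a9 gave 416.4 and 541.1 and passed on replicate 2 alone, and Slc39a6 was the lowest with 50.7 and 34.6. Of 5 Slc30 genes, which move zinc out of the cytosol, the one above background was Slc30a3, known from synaptic vesicles. It gave 1649 and 1290 in its plain set and 19.5 and 20.3 in its set of suffix i. Slc30a1, the zinc exporter of the plasma membrane, was the lowest of that family with 110.4 and 72.7.

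Slc11a1, the metal carrier of macrophage phagosomes, was not above background (381.7 and 252.9), while 5 of 6 Kupffer cell markers were. Their summed signal was 9831 and 9748, and the exception was Marco with 23.6 and 18.8. Its relative Slc11a2, the iron importer, gave 320.2 and 288.9 in the brighter set. The anion exchanger of red cells, Slc4a1, gave 92.7 and 157.7, although 3 of 5 red cell precursor markers were above background. That list summed to 27107 and 27751, mostly from the alpha-globin gene Hba-a1 (24075 and 24908). The part of these cell types in the signals of the carriers was not tested.

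Ion and acid-base families (Slc4, Slc8, Slc9, Slc12, Slc20, Slc26 and Slc34) had 5 of 23 genes above background on both arrays. Slc9a3r1, the scaffold that tethers transporters beneath the apical membrane, gave 2376 and 2894. The carriers among the 5 were Slc12a7, a potassium chloride cotransporter (944.8 and 829.8), Slc26a1, a sulfate and oxalate exchanger of hepatocytes (799.0 and 737.7), Slc4a2, a chloride bicarbonate exchanger (659.0 and 812.4), and Slc9a8, a sodium proton exchanger of the Golgi (601.0 and 676.0). None of these 4 carriers exceeded 944.8 on either array. The kidney cotransporters Slc12a1 (66.6 and 63.0), Slc12a3 (19.5 and 37) and Slc34a1 (97.5 and 62.6) were not above background, and Slc12a3 was the lowest of its family. Slc4a5 was the lowest of the Slc4 family and of all members by mean log2 signal with 5.3 and 7.7, and Slc9b2 the lowest of Slc9 with 18.5 and 21.5.

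Nucleoside and nucleotide sugar carriers (Slc29 and Slc35) had 4 of 12 genes above background on both arrays. Slc29a1, the equilibrative nucleoside carrier of the plasma membrane, gave 3638 and 4349, with 149.2 and 164.1 in its set of suffix r. The other 3 serve the secretory pathway. Slc35b1, which brings ATP into the endoplasmic reticulum, gave 2145 and 2227. Slc35d1, which supplies UDP-glucuronic acid there, gave 1451 and 1382, and Slc35b2, which supplies the sulfate donor PAPS to the Golgi, 965.0 and 1017. Slc35e4 was the lowest Slc35 gene with 19.2 and 30.7.

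Organic ion carriers (Slc22 and Slco) were above background on both arrays for 2 of 13 genes, and their median percentile was 24.04. Slc22a18, an imprinted gene of this family, gave 2213 and 1895. Slc22a30 gave 1605 and 1501 from a set of suffix i, and as it has close relatives in a gene cluster its signal may be shared with them. A further set names it together with another Slc22 gene and was left out for that reason. Slc22a5, the carnitine carrier, gave 423.2 and 420.6 and lay below the threshold on both arrays. The kidney carriers Slc22a6 (21.9 and 34.7), Slc22a2 (100.3 and 41.3) and Slc22a12 (180.6 and 173.7) were not above background. The lowest Slc22 gene was Slc22a4 with 14 and 16.2. The 3 measured Slco genes lay between 4.3 and 44.8, with Slco6c1 lowest (4.3 and 12.9).

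Of 11 genes in the families of bile acid, fatty acid, acetyl-CoA and choline carriers (Slc10, Slc27, Slc33 and Slc44), Slc27a2 and Slc44a4 were above background on both arrays. Slc44a4 gave 528.1 and 544.1 in its plain set, just over the threshold, and 22.9 and 4.8 in its set of suffix r. The rule left out Slc10a1 and Slc27a5, so neither is among these genes. Besides Slc27a2, no Slc27 member was above background. Slc27a4 gave 241.4 and 214.8, Slc27a1 29 and 41, and Slc27a3, the lowest, 30.6 and 35. Slc10a2, the bile acid carrier of the ileum, was the lowest of its family with 6.8 and 59.0. Slc44a2 was the lowest of Slc44 with 46.2 and 77.7. Slc51a, a subunit of the basolateral bile salt exporter of the intestine, gave 106.3 and 179.4.

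In the families that hold the sugar carriers (Slc2, Slc5 and Slc50), 2 of 9 genes were above background on both arrays. Slc2a8, a glucose carrier of intracellular membranes, gave 655.8 and 714.1 in its plain set and 12 and 9.2 in its set of suffix f, and Slc50a1, a sugar carrier of the Golgi, 574.6 and 604.1. The rule left out Slc2a2, so it is not among the 9 genes. The glucose carriers typical of other tissues were below the threshold. Slc2a1, prominent in the blood-brain barrier, gave 54.2 and 40.4 and was the lowest of its family. The neuronal Slc2a3 gave 297.8 and 288.1, the insulin-responsive Slc2a4 of muscle and fat 173.7 and 98.2, and the fructose carrier Slc2a5 74.8 and 33.7. Slc5a1, the sodium glucose carrier of the intestine, was the lowest of Slc5 with 31.1 and 38.5.

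Among monocarboxylate and vitamin carriers (Slc16, Slc19, Slc23 and Slc46), 2 of 8 genes were above background on both arrays. Slc46a1, the proton-coupled folate carrier, gave 950.6 and 1024. Slc23a3, an orphan relative of the ascorbate carriers, gave 1043 and 871.7 in its set of suffix r and 148.4 and 177.9 in its plain set, so its call rests on the suffixed set. The ascorbate carriers themselves were below the threshold, Slc23a2 with 372.8 and 395.1 and Slc23a1, the lowest, with 79.4 and 92.2. Slc16a1, the lactate carrier of most cells, was the lowest of Slc16 with 66.2 and 86.0. Of the small remaining families, Slc66a2 gave 2324 and 1899 and Slc48a1, a haem carrier, 622.7 and 738.0, both above background. The peptide carrier Slc15a2 gave 110.7 and 39.4.

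Proteins that carriers depend on were measured as well. Bsg, basigin, which escorts Slc16a1 to the cell surface, gave 6193 and 6164, whereas its relative Emb gave 128.4 and 59.4. Pdzk1, a scaffold of apical and sinusoidal carriers, gave 544.5 and 613.6. Of 3 measured sodium pump subunits, Atp1b3 was above background with 1561 and 1800, and of 3 channels of the outer mitochondrial membrane, Vdac3 with 856.7 and 810.4. Of 7 measured carriers with symbols outside the Slc naming, Mtch2 (3090 and 2281) and Mtch1 (484.7 and 524.8) of the mitochondrial carrier superfamily were above background, and Mpc1, a subunit of the pyruvate carrier, was not (85.7 and 16.7).

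Of the 149 genes, 28 were read by several probe sets, 60 sets in all. The sets of 11 of these 28 genes stood on different sides of the threshold, against 625 of 2073 named genes with several sets (30.1%). The 11 were Slc38a10, Slc38a2, Slc44a4, Slc30a3, Slc39a1, Slc25a5, Slc25a51, Slc23a3, Slc6a6, Slc29a1 and Slc2a8. All sets were above in 3 genes (Slc25a1, Slc31a1 and Slc39a4) and none in 14. In 7 of the 11, every set not above background carried a suffix letter, which marks probes that are shared with other sequences or chosen under relaxed rules. Slc38a10 gave 22.7 and 26.1 in its set of suffix r. The 3 sets of suffix r of Slc38a2 lay between 2.5 and 99.1, and the suffixed set of Slc25a51 gave 296.7 and 271.0. The exceptions with a plain set below were Slc39a1, Slc25a5, Slc23a3 and Slc6a6, whose second set gave 235.9 and 166.2.

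**Figure D3:**
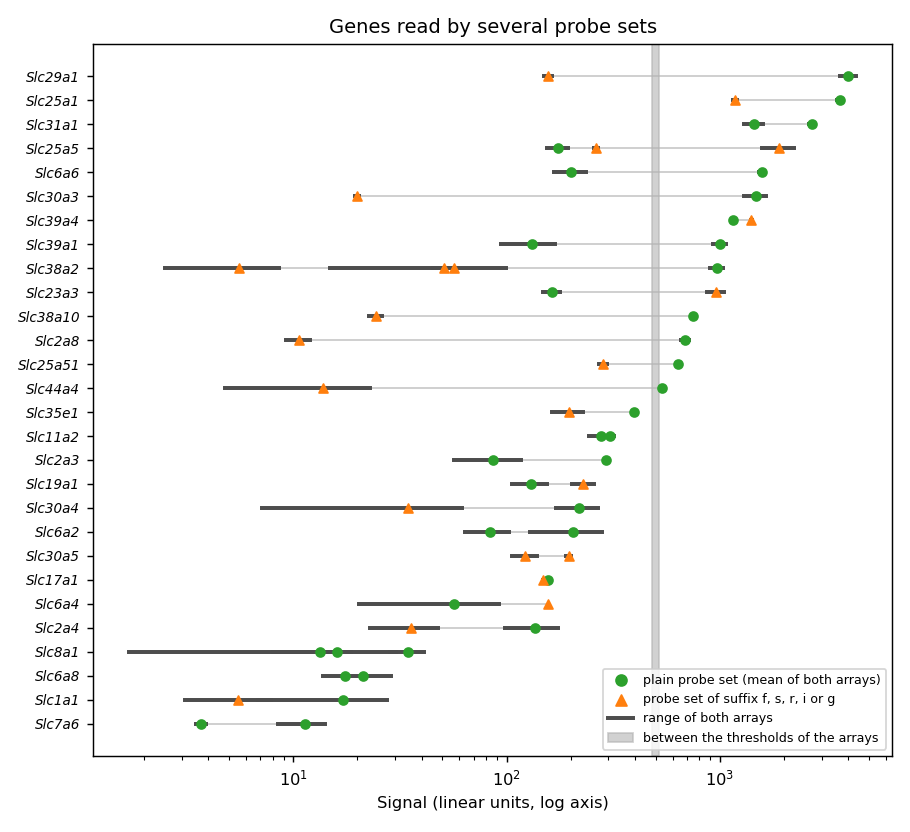
Signal of each probe set of the 28 genes read by several (log axis, linear signal units; circles plain sets, triangles sets with a suffix letter, dark bars the range of both arrays, grey band the span between the thresholds). For 11 genes the sets stand on different sides of the band, for example Slc29a1 with 3638 and 4349 in one set and 149.2 and 164.1 in the other.

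The arrays agreed closely for carriers with signal above background. In the 43 genes above background on both arrays, the larger array exceeded the smaller by a median factor of 1.08. The largest factor was 1.42 (Slc25a5). Of the 43, 28 were higher on replicate 2, a count that was not made over all named genes above background. The centring described below subtracts a log2 median of only -0.0058. The 43 genes are not the same set as the 97 probe sets counted below. In the 102 genes above on neither array the median factor was 1.42. Over all named genes these medians were 1.09 and 1.33. Of the 181 probe sets, 97 were among the brighter 50% of the array. Log2 differences, replicate 2 minus replicate 1, were centred on the median of all 6211 brighter probe sets, which sets that median to 0. The median of the 97 was then -0.01, with an SD of 0.33 beside 0.36 over all brighter probe sets. Of the 97, 47 were higher on replicate 2 after centring, and so were 3105 of the 6211. Beyond 2-fold were 3 of the 97 (3.09%), against 2.09% of all brighter probe sets. They were Slc44a1, a choline carrier (185.1 and 378.0), Slc6a2 (129.2 and 281.5) and Slc6a18 (244.1 and 117.3), none above background on either array. Of the 84 dimmer probe sets of members, 22 differed by over 2-fold (26.2%), against 34.5% of all dimmer ones. These differences set a single array against another, so they could not be checked against replicates and none was tested.

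**Figure D4:**
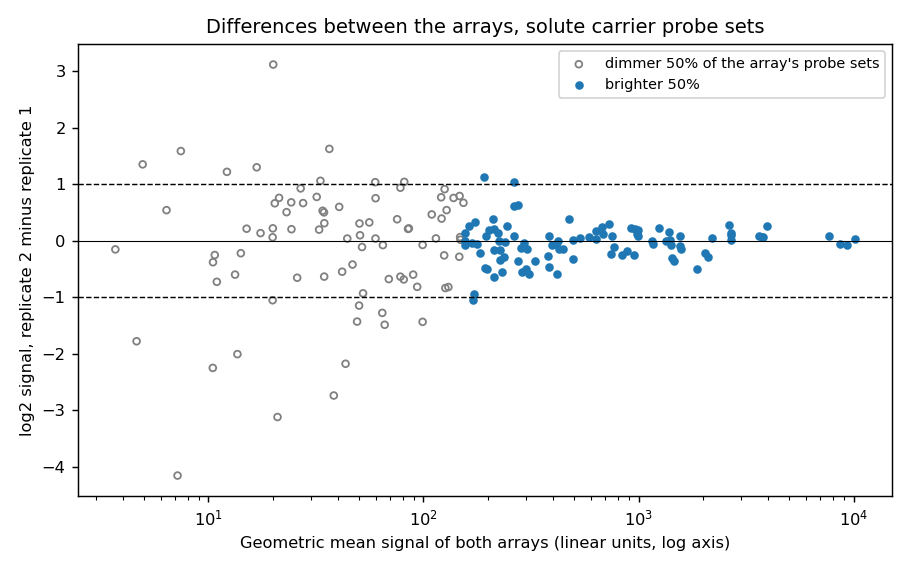
Log2 signal of replicate 2 minus replicate 1, centred on the median of the brighter probe sets, for the 181 solute carrier probe sets against the geometric mean signal of both arrays (log axis; filled points the brighter 50% of the array's probe sets, open points the dimmer 50%, dashed lines 2-fold). The points close in on 0 as the signal grows, and 3 of the 97 brighter points lie beyond 2-fold.

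The number of genes called depends on the threshold. At the 99th percentile of the same background genes (979.6 and 862.6) 26 of the 43 remained, and all 17 that fell below it are named above with a signal at or under that level on at least 1 array. Slc38a4, Slc27a2, Slc25a47, Slc25a39, Slc25a25, Slc25a1, Slc6a13, Slc29a1 and Slc31a1 were among the 22 genes above background under every planned setting tried. The same count was not made over all named genes, so the 22 cannot be set beside the array.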

How the data were processed

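Mouse liver RNA was measured on 2 arrays, both grouped as liver from their titles. The deposited values are signal intensity on a linear scale, 1 per probe set and array. How they were scaled and summarised, and with which software, is not given in the sources used here; the mean after trimming 2% at each end was 500.5 on both arrays. Because summarised values were the starting point, background correction could not be repeated, which matters most for low signals.

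The platform annotation gave 1 gene to 10855 of 12488 probe sets, several to 396 and none to 1237; 66 were controls. All 181 member sets matched the RefSeq table (GRCm38.p6) by gene identifier. The members and lists were chosen with earlier results of these data known. The background list of 140 genes (121 measured, 5 above the threshold on both arrays) was written anew, in place of an earlier list that was not used here, so thresholds differ from those the earlier list would give. Named genes are every member above background on both arrays, every member with sets on different sides, every brighter set over 2-fold different, and the lowest gene of each family with 3 or more; others named were chosen after their values were seen. No test was made, as there is 1 group. Steps were tested on simulated data. Alternatives were other thresholds, probe set rules, quantile normalization, log2(value + 32), other filters and each array alone. Python 3.11.15, numpy 2.4.6, pandas 2.3.3 and matplotlib 3.10.9 were used.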

Additional observations from a re-analysis of the deposited data

Results flagged for a closer look

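Outside the members, 1 probe set that names more than 1 gene, all of them solute carriers of the Slc22 family and a member described above among them, was above the background threshold on both arrays, with 1676 on replicate 1 and 1444 on replicate 2. It stayed out of every count because its signal cannot be given to 1 gene. Groups of 2 arrays are too small to look for an outlying sample.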

How the results depend on the processing

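The count of 43 carrier genes above background on both arrays fell to 26 with the threshold at the 99th percentile (17.4%, against 16.3% of all named genes) and rose to 71 with a fixed threshold of 200 (47.7%, against 49.3%). Under the other alternatives it ran from 34 (22.8%, against 22.8% of all named genes) to 55 (36.9%, against 38%). Replicate 2 alone gave 44 (29.5%, against 29.5%) and replicate 1 alone 46 (30.9%, against 31.7%). Averaging the sets of each gene also lowered the threshold, to 290.1 and 319.4, and gave 48 (32.2%, against 32.5% of all named genes). Of the 48, 37 were among the 43, and Slc2a8, Slc30a3, Slc38a10, Slc38a2, Slc39a1 and Slc44a4 fell below. Without suffixed sets the threshold became 320.7 and 337.3 and the count 51 (34.9%, against 35.6%). Of the 51, 40 were among the 43. Slc23a3 and Slc25a5 fell below and Slc22a30 had no set left. The threshold was also kept at 480.3 and 516.5, in alternatives chosen after seeing the data. Averaging then gave 34, and Slc23a3, Slc25a5 and Slc25a51 fell below as well. Leaving out suffixed sets gave 40 (27.4%, against 26.8%). The median percentile of 49.1 became 50.1 after such averaging, 49.3 without suffixed sets, 49.1 without Slc4a1ap, Slc9a3r1 and Slc9a3r2 (chosen after seeing the data), and 48.08 to 48.09 with each array alone. The 11 genes with sets on different sides became 5 at the 99th percentile, where the count was not made over all named genes. The 3 sets over 2-fold became 25 of 181 with all probe sets (13.8%, against 18.2% over the array). They became 0 of 48 in the brightest 25% (against 0.451%) and 0 of 95 with log2(value + 32) (against 1.48%). The median log2 difference of -0.0083 became 0.0424 with all probe sets, 0.0248 in the brightest 25%, 0.0053 with quantile normalization and -0.0141 with no shift. The cause of these moves was not tested, apart from the lower or higher threshold and the smaller or larger number of sets that the settings themselves bring. Differences between the arrays need both, so neither could be left out there. No paired analysis was possible because there is 1 group. Low signals limit what can be said of the 102 genes above on neither array.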

Other observations

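In the RefSeq order of protein-coding genes, 4 pairs of measured carrier genes are direct neighbours. Slc38a2 and Slc38a4, both neutral amino acid carriers, were each above background on both arrays, and so were the neighbours Slc6a13 and Slc6a12. Slc22a5, Slc22a21 and Slc22a4 follow each other, and none of them was above background on either array, with Slc22a21 at 80.8 and 29.9. These pairs were found after the values were seen, and nothing was tested on them.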
